A study of Mus musculus with 4 samples.

Results

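Translation initiation and elongation factors were read out in monocytes sorted by flow cytometry from mouse bone marrow. The members were all gene symbols of the count tables that begin with Eif1 to Eif6 or with Eef1 or Eef2, without the Eif2ak kinases, Eif2s3y and names containing -ps. This gave 64 of 31017 symbols, and 5 further rows with such symbols were left out by the rule. The 64 hold inhibitors, a kinase and methyltransferases of the factors as well as the factors themselves, and also Eif2c5, whose symbol derives from an older name of the argonaute family and which had 0 counts. Libraries came from wild-type C57BL/6 mice aged 18 months (aged, 2 libraries) or 3 months (young, 2 libraries). No treatment or transgene is named, and all 4 libraries carry the label atherosclerosis as disease without saying whether the animals had plaques. Whether replicates are separate animals is not stated in the labels, and p-values therefore rest on differences among replicate libraries that may be purely technical.

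Initiation factors bring the small ribosomal subunit, the initiator tRNA and the capped mRNA together and place the ribosome on the start codon. Elongation factors then deliver aminoacyl-tRNAs (eEF1) and move the ribosome along the message (eEF2). Many messages for elongation factors, for some eIF3 subunits and for all cytosolic ribosomal proteins begin with a C followed by a run of pyrimidines, the 5′ terminal oligopyrimidine (TOP) tract, through which mTOR signalling controls their translation and, with the protein LARP1, their stability.

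The start regions of 8 members are shown because the known TOP messages are described as a list further on. Of the 8, Eef1a1, Eef2, Eif3f, Eif4b and Eef1b2 are in that list. Each stretch holds 30 bases, from 8 before the RefSeq start to 22 from the start on (GRCm38.p6, the assembly also called mm10), 5′ to 3′ on the gene's strand. Capitals mark each C followed by at least 5 pyrimidines (C or T), searched on the gene's strand only. The first 6 hold such a run, whereas Eef1b2 and Eif5b, whose transcripts passed the test between ages, do not in this window. In Eef2 and Eif4b the whole run lies downstream of the RefSeq start. Whether the marked runs stand at the 5′ end of the messages in these cells was not tested.
Eef1a1, chr9:78481703-78481732, minus strand: ccgCCCTCTTCCCgagggtgggggagaacg
Eef2, chr10:81176623-81176652, plus strand: ggccgggcgttgacgtcagcggtCTCTTCC
Eif3f, chr7:108934407-108934436, plus strand: taggCTCTCTCTCTTTCTCggcaagatggc
Eif3l, chr15:79075215-79075244, plus strand: gttCTTCTTCCgCTCTCTCCCacgggcttc
Eif4b, chr15:102073765-102073794, plus strand: ccgtcggacgccgcgccaCCCCCTCgcgct
Eif2s3x, chrX:94212630-94212659, minus strand: gcattttCCTTTTCTCTCCgagcaagatgg
Eef1b2, chr1:63176823-63176852, plus strand: gcagttccgccggaagtagccgaggccttg
Eif5b, chr1:37998002-37998031, plus strand: gggttcccacctggccggcggctctactgg

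Library totals ranged from 20159129 to 34278754 counts, with young replicate 1 the deepest, and 12035 genes were tested, among them 58 members. The sort was checked on 10 monocyte identity genes, of which 3 were higher and 1 was lower in aged libraries, and which summed to between 38661 and 41176 CPM (the count scaled to library size with TMM factors). Further lists differed with age. Beside the counts in this paragraph, 2.87% of all 12035 tested genes were higher and 2.89% lower (edgeR adjusted p under 0.05). Of 11 non-classical monocyte genes 9 were higher in aged libraries (1516 and 1649 against 1016 and 1064 CPM summed). Of 9 classical monocyte genes 5 were lower (14059 and 14894 against 17394 and 17405 CPM), and so were 5 of 8 progenitor genes (2928 and 2984 against 3557 and 3619 CPM). Of 17 immediate early genes 14 were higher (4856 and 5001 against 2726 and 2744 CPM). Nr4a1 is in both the immediate early and the non-classical monocyte list. B-lineage genes were at 52.6 and 55.2 CPM summed in aged and 36.3 and 32.6 CPM in young libraries, with 3 of 8 tested members higher, and plasma cell genes at 530 and 517 against 447 and 446 CPM, with 1 of 7 tested members higher. The sums of the neutrophil granule list were 18479 and 18490 against 15202 and 14808 CPM (3 of 7 higher). In dendritic cell genes 2 of 10 and in macrophage genes 3 of 8 tested members were higher, and in erythroid and in T and NK cell genes 0 of 9 and 0 of 7 passed. Marker sums in the order aged 1, aged 2, young 1 and young 2 were 303, 314, 274 and 270 CPM for dendritic cells, 164, 169, 117 and 117 CPM for macrophages, 378, 383, 384 and 345 CPM for erythroid cells and 45.3, 43.4, 49.3 and 54.7 CPM for T and NK cells. No marker of these lists was at 3 counts or fewer in all 4 libraries. The part of these shifts in the results on translation factors was not tested, and in bulk RNA fewer cells of a type and less RNA per cell cannot be told apart.

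Translation factor transcripts as a group stood at nearly the same level at both ages, with both aged libraries slightly below both young ones. They made up 1.01% and 1.02% of counts at 18 months and 1.05% and 1.04% at 3 months. Summed over the 64 members, the level was 10064 and 10280 CPM at 18 months against 10456 and 10563 CPM at 3 months. Within this sum, Eef1a1 alone had a mean of 1567 CPM in aged and 1846 CPM in young libraries. Of the 58 tested members, Eif5b rose and Eef1b2 fell, which is 3.45% of them beside 5.77% of all tested genes, of which 2.87% rose and 2.89% fell (edgeR quasi-likelihood test, Benjamini-Hochberg adjusted p under 0.05). The median log2 change, aged minus young, was -0.023 against -0.0044 over all tested genes, and 52 of the 58 lay within 0.25 of 0. At an unadjusted p under 0.05 the count was 19 of 58 (8 with higher and 11 with lower values in aged cells), or 32.8%, beside 21.1% of all tested genes. The groups did not overlap in 36 members (16 with aged above and 20 with aged below young), or 62.1%, beside 51.6% of all tested genes (25.9% and 25.7%). Members were measured tightly: the median absolute log2 difference was 0.058 between the aged and 0.059 between the young libraries, against 0.13 between ages. Over the 11996 tested genes with no 0 count the same medians were 0.13, 0.12 and 0.15. The shares of all tested genes given above thus come from genes with a wider spread between replicates. Among genes with a mean of at least 5 CPM, 2 of 57 members passed, beside 7.27% of all genes in that fit.

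**Figure D1:**
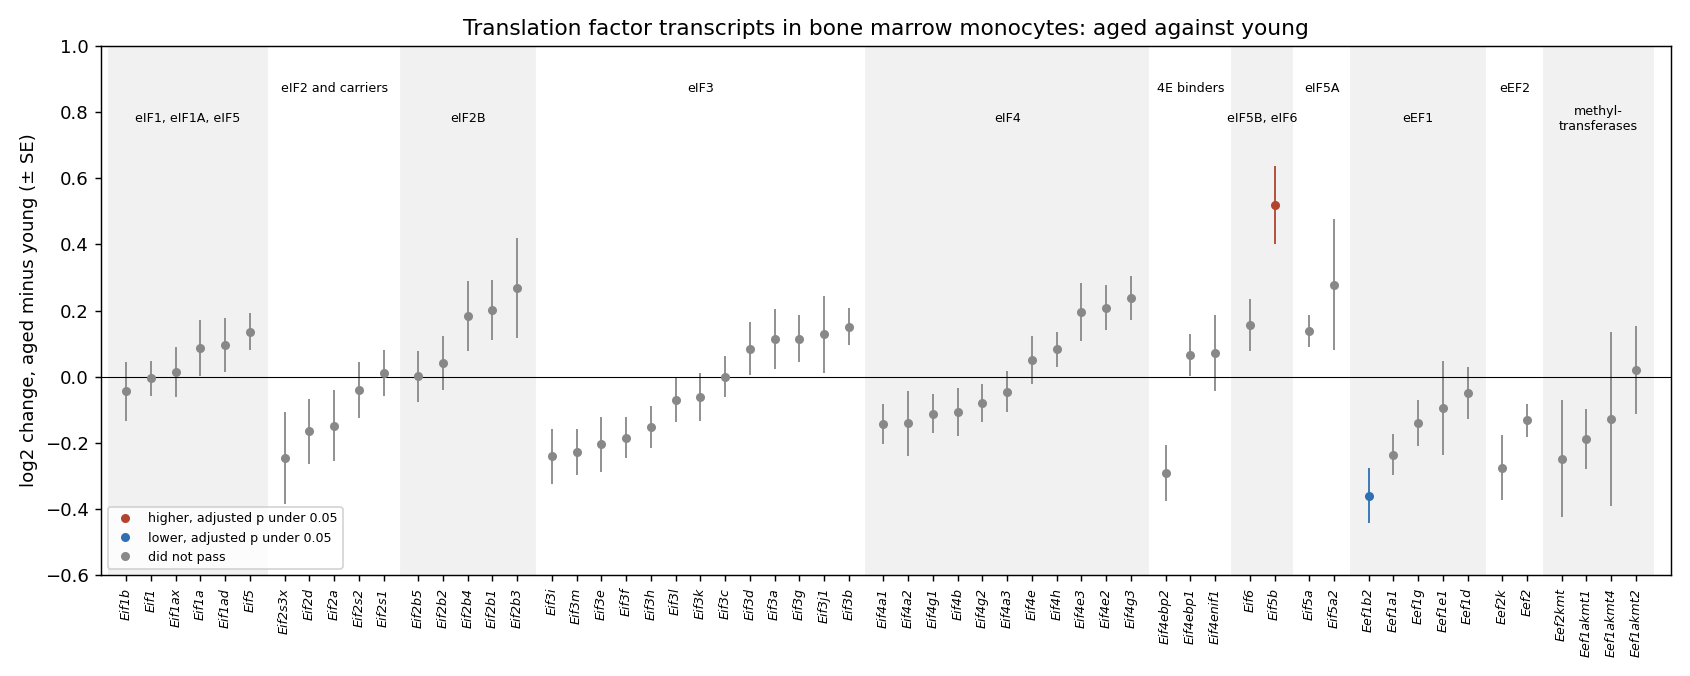
Log2 change (aged minus young) of the 58 tested members with its standard error, ordered within functional groups; red and blue points passed an adjusted p under 0.05. Eif5b stands highest at 0.52 and Eef1b2 lowest at -0.36, and the other 56 did not pass.

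Per length, the messages differed widely in abundance. Levels were set against the longest protein-coding transcript of GENCODE's basic set and averaged over the 4 libraries. Eef1a1, the carrier of aminoacyl-tRNA, led with 951 CPM per kilobase, followed by Eif5a at 773, Eif1 at 402 and Eef2 at 267. These 4 also led, in that order, over the length of all annotated exons. Within each age the same order held, with Eef1a1 at 874 and Eif5a at 810 CPM per kilobase in aged and 1029 and 735 in young cells. The gap between these 2 genes was thus narrower in the aged libraries. Most members of eIF3 lay between 28.2 and 119 CPM per kilobase, with Eif3h highest, and Eif3j1 and Eif3j2 below at 4.70 and 0.17. The eIF2B subunits spanned 3.39 (Eif2b3) to 38.0 (Eif2b2), and among the tested members the low end was held by Eef2k, Eif2b3, Eif5b, Eef1akmt4 and Eif5a2 at 4.20 to 2.44. The 5 most counted genes, Eef1a1, Eif5a, Eif4g2, Eef2 and Eif1, took between 49.7% and 52.6% of the members' counts in a library.

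**Figure D2:**
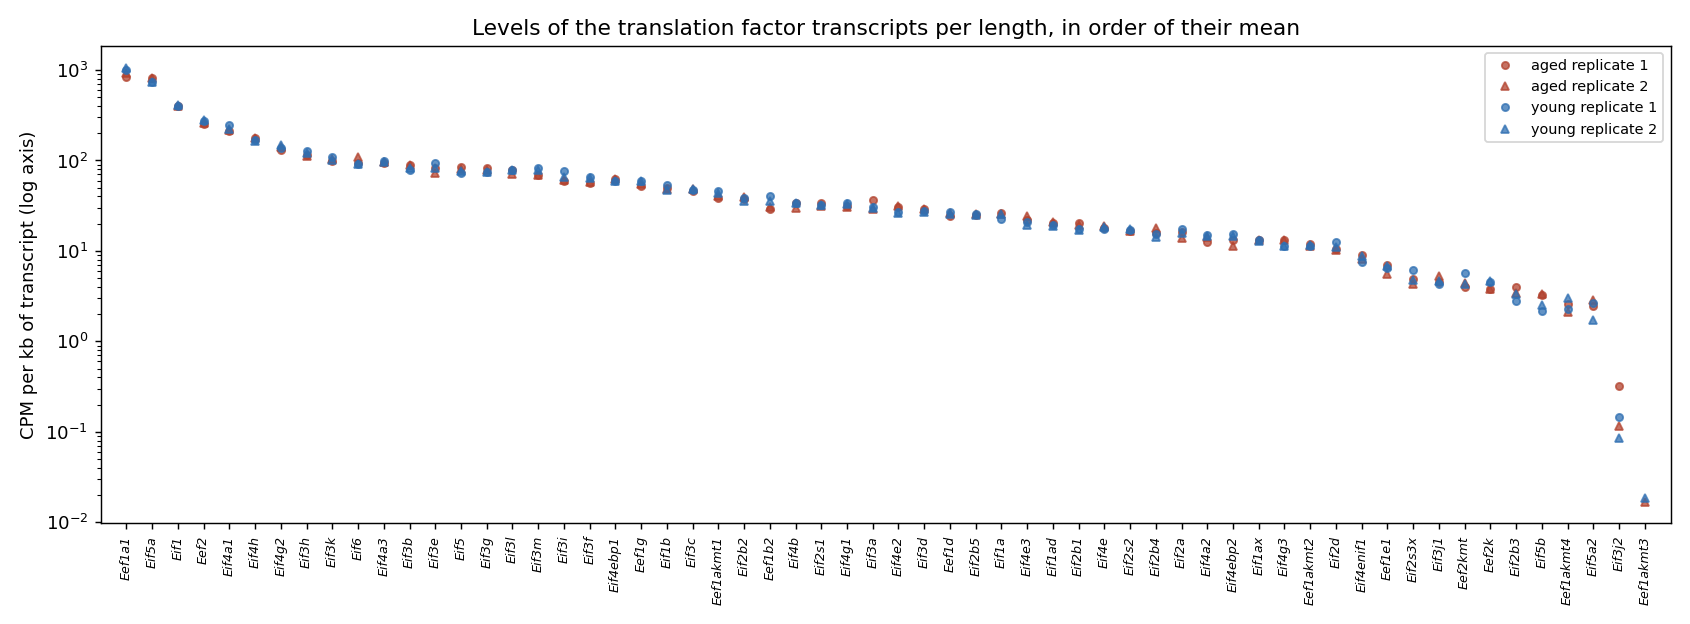
Level per kilobase of transcript (log axis) of the 60 members with at least 1 count, in each of the 4 libraries, ordered by mean. Levels run from 951 (Eef1a1) to 0.0088 (Eef1akmt3), and the libraries lie close together for all but the rarest genes (libraries with 0 counts are not drawn).

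Of the 6 members that were not tested, Eef1a2, the eEF1A form of muscle and neurons, Eif4e1b, Eif4ebp3 and Eif2c5 had 0 counts in every library. A count of 0 allows up to 3 counts, which is 0.120 and 0.138 CPM for aged and 0.0868 and 0.151 CPM for young replicates, and covers counting error only. Eif4ebp3 shares 67.3% of its exon length with AC115631.1, a protein-coding gene on the same strand. Whether reads in that stretch were left out or given to AC115631.1 is not known, so the 0 of Eif4ebp3 does not show absence. Eef1akmt3 had 0, 1, 0 and 1 counts and Eif3j2 had 19, 6, 12 and 4 counts in aged 1, aged 2, young 1 and young 2. Eif3j2 is a near-identical copy of Eif3j1, so that reads may have been split between them. Reads may also have been shared between Eif1a and Eif1ax, between Eif2s3x and its Y-linked copy, and between Eef1a1 and its processed pseudogenes. None of these sequences were compared here. How reads with several matches were counted is not given in the sources used here.

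Start codon selection is run by eIF1, eIF1A and eIF5, which test the initiator tRNA against the AUG in the scanning complex. No member of this group passed. Eif1 was at 529 and 533 CPM at 18 months against 523 and 542 CPM at 3 months, a log2 change of -0.0045 ± 0.052 (standard error, n = 2 per group). Eif5, the activator of the eIF2 GTPase, was at 339 and 329 against 298 and 310 CPM. Its groups did not overlap, and the difference of 0.14 ± 0.056 did not pass (edgeR adjusted p = 0.194). The eIF1A genes Eif1a and Eif1ax gave 0.088 and 0.014, Eif1b -0.044 and Eif1ad 0.096. Eif1ad shares 15.3% of its exon length with Banf1 on the opposite strand.

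eIF2 carries the initiator tRNA, and eIF2B recharges it with GTP, the step that eIF2 alpha kinases block under stress. Eif2s1, the phosphorylated alpha subunit, was at 115 and 107 CPM at 18 months against 110 and 111 CPM at 3 months (0.011 ± 0.069, edgeR adjusted p = 0.947). Eif2s2 gave -0.041, Eif2s3x -0.25, and the alternative tRNA carriers Eif2a and Eif2d -0.15 and -0.16. None of these 5 passed. The 5 eIF2B genes had log2 changes above 0, and none passed. The sign was not stable in Eif2b5, which ranged from -0.048 to 0.028 over 15 alternatives, or in Eif2b2, which was at -0.0071 without young replicate 2. Eif2b1 was at 41.3 and 38.9 against 35.1 and 34.6 CPM, without overlap (0.20 ± 0.091, edgeR adjusted p = 0.235). Eif2b3 gave 0.27, Eif2b4 0.18 and Eif2b2 0.042. Eif2b5, the catalytic subunit, was level at 63.1 and 65.5 against 64.8 and 63.7 CPM (0.0012 ± 0.077).

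eIF3 is the large scaffold that binds the small ribosomal subunit and bridges it to the cap complex. None of its 13 tested genes passed, while 6 had an unadjusted p under 0.05 (46.2%, beside 21.1% of all tested genes), and these went in both directions. Eif3b, a core subunit, was at 263 and 264 CPM at 18 months against 233 and 242 CPM at 3 months (0.15 ± 0.057, edgeR adjusted p = 0.157), and its value was 0.072 with GC content and length offsets. The other 5 were lower in aged cells, and their groups did not overlap. Eif3m was at 89.5 and 87.9 against 106 and 101 CPM (-0.23 ± 0.070, edgeR adjusted p = 0.0914). Its partners in the f, h, m module, Eif3f (141 and 146 against 166 and 160 CPM) and Eif3h (148 and 144 against 167 and 157 CPM), gave -0.18 ± 0.062 and -0.15 ± 0.063. With GC content and length offsets Eif3f passed (-0.23, edgeR adjusted p = 0.0465). The 3 genes of this module summed to 378 and 378 CPM at 18 months against 439 and 418 CPM at 3 months.
Eif3i, a beta-propeller subunit, was at 67.2 and 68.1 against 84.9 and 74.6 CPM (-0.24 ± 0.084), and Eif3e at 123 and 109 against 141 and 126 CPM (-0.20 ± 0.083). These values were -0.14 and -0.12 when young replicate 1 was left out. Eif3e was also at -0.12 without aged replicate 2 and with GC content and length offsets, and passed with aged replicate 2 as the lone aged library (-0.29, edgeR adjusted p = 0.0376). Eif3a, the largest subunit, had 185 CPM in aged replicate 1 and 149 in aged replicate 2, against 155 and 154 in the young libraries, so that its groups overlapped (0.11 ± 0.090). Without aged replicate 1 its value turned to -0.051. Eif3c, Eif3l and Eif3k gave 0.00042, -0.071 and -0.062, and Eif3d, Eif3g and Eif3j1 gave 0.085, 0.12 and 0.13. Eif3d shares 43.3% of its exon length with an antisense gene model, and whether the counting used strand is not given in the sources used here.

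The cap-binding complex eIF4F consists of the cap-binder eIF4E, the scaffold eIF4G and the helicase eIF4A. Among 11 tested genes of this group 0 passed. Eif4e was at 90.6 and 94.7 CPM at 18 months against 86.7 and 92.2 CPM at 3 months, overlapping (0.052 ± 0.073). The scaffold genes did not go one way. Eif4g3 was at 108 and 109 against 92.8 and 91.2 CPM (0.24 ± 0.067, edgeR adjusted p = 0.0665; 0.0205 with GC content and length offsets), and Eif4g1, the main scaffold, at 176 and 171 against 190 and 185 CPM (-0.11 ± 0.059, edgeR adjusted p = 0.316). Groups of both genes were apart, in opposite directions. Eif4g2, the abundant relative that lacks the eIF4E site, was at 1048 and 1115 against 1103 and 1182 CPM, with overlap (-0.079 ± 0.057).
The helicase gene Eif4a1 was at 372 and 381 against 434 and 396 CPM (-0.14 ± 0.060, edgeR adjusted p = 0.213), and at -0.072 on the log2 scale without young replicate 1. Its paralogue Eif4a2 gave -0.14 from far fewer counts, and Eif4a3, a core protein of the exon junction complex, gave -0.045. The cap-binding relatives Eif4e2 (107 and 108 against 94.6 and 91.2 CPM) and Eif4e3 (56.0 and 61.0 against 52.9 and 49.0 CPM) had higher values in aged cells, 0.21 ± 0.068 and 0.20 ± 0.087, with adjusted p values of 0.108 and 0.229 in edgeR. The helicase cofactors Eif4b and Eif4h gave -0.11 and 0.083. Eif4e3 shares 14.8% of its exon length with Gm20696 on the same strand.

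The 4E-BPs hold eIF4E away from eIF4G until mTOR phosphorylates them. Eif4ebp1, the form more abundant here per length, was at 123 and 123 CPM at 18 months against 119 and 117 CPM at 3 months (0.065 ± 0.064, edgeR adjusted p = 0.611). Eif4ebp2 was at 75.7 and 66.3 against 88.3 and 85.3 CPM, with both aged libraries below both young ones (-0.29 ± 0.084; edgeR adjusted p = 0.0705). It passed without aged replicate 1 (-0.39, edgeR adjusted p = 0.00962) and with no low-count filter (edgeR adjusted p = 0.0148), and over 15 alternatives its adjusted p ran from 0.00216 to 0.351. With 1 aged library left, its spread is assumed to be that of the young pair. Eif4enif1, the eIF4E transporter, gave 0.071.

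Subunit joining is catalysed by eIF5B, the GTPase that brings in the large subunit. Eif5b (ENSMUSG00000026083.12; chromosome 1, 37998010 to 38055579, plus strand) was at 25.6 and 26.2 CPM at 18 months against 16.7 and 19.6 CPM at 3 months. Both aged values lay above both young ones, with means of 25.9 ± 0.442 and 18.2 ± 2.06 CPM (SD, n = 2 per group). It rose 1.43-fold, a log2 change of 0.52 ± 0.12 (edgeR adjusted p = 0.0304). Adjusted p values over 15 alternatives ran from 0.000284 to 0.276, and it did not pass without aged replicate 2 (0.50, edgeR adjusted p = 0.0618) or without young replicate 1 (0.40, edgeR adjusted p = 0.276). Rev1, a DNA polymerase gene on the opposite strand, covers 16.8% of the exon length of Eif5b, and stood at 11.5 and 9.75 against 10.6 and 9.58 CPM, with overlap. Eif6, which keeps the large subunit from joining early, was at 140 and 163 against 137 and 136 CPM (0.16 ± 0.078, edgeR adjusted p = 0.282). Its difference rested on aged replicate 2: it was 0.040 without this library and 0.26 without aged replicate 1, where it passed (edgeR adjusted p = 0.0366, with a range over 15 alternatives up to 0.837). In that fit the lone aged library is assumed to vary like the young pair.

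eIF5A, the factor that carries the amino acid hypusine and helps ribosomes past stalling stretches, showed close replicates. Eif5a was at 1163 and 1164 CPM at 18 months against 1058 and 1055 CPM at 3 months. The groups were apart, and the log2 change of 0.14 ± 0.049 did not pass (edgeR adjusted p = 0.136). With each library left out it was between 0.13 and 0.14, and with GC content and length offsets it was 0.086 (edgeR adjusted p = 0.377). Eif5a2, the rarer form, was at 12.5 and 14.6 against 13.4 and 8.58 CPM, with overlap.

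The eEF1 complex holds eEF1A and its nucleotide exchange subunits eEF1B, and all 5 tested genes had negative log2 changes, except that Eef1d was at 0.0070 without aged replicate 1 and Eef1e1 at 0.071 without aged replicate 2. Eef1b2, the exchange subunit that recharges eEF1A (ENSMUSG00000025967.16; chromosome 1, 63176825 to 63180486, plus strand), was at 57.0 and 58.6 CPM at 18 months against 78.1 and 69.9 CPM at 3 months. Both aged values were below both young ones, with means of 57.8 ± 1.16 and 74.0 ± 5.79 CPM (SD, n = 2 per group). It fell by 0.36 ± 0.083 on the log2 scale (edgeR adjusted p = 0.0338), which is 1.28-fold. Eef1b2 shares 6.95% of its exon length with Gm27390 on the same strand. Over 15 alternatives its adjusted p ran from 0.000243 to 0.311, and it did not pass without aged replicate 2 (-0.38, edgeR adjusted p = 0.0527) or without young replicate 1 (-0.27, edgeR adjusted p = 0.311).
Eef1a1 (ENSMUSG00000037742.14; chromosome 9, 78478449 to 78489151, minus strand) was at 1487 and 1647 against 1784 and 1908 CPM. The groups did not overlap, and the log2 change of -0.24 ± 0.062 missed the threshold (edgeR adjusted p = 0.0523). It passed in 9 of 15 alternatives, among them DESeq2 (adjusted p = 0.043) and limma-voom (adjusted p = 0.0311), and its adjusted p ran from 1.7e-05 to 0.176. With a library left out it passed without aged replicate 2 (-0.31, edgeR adjusted p = 0.0139) and not without aged replicate 1 (-0.16, edgeR adjusted p = 0.0974), young replicate 1 (-0.28, edgeR adjusted p = 0.0928) or young replicate 2 (-0.19, edgeR adjusted p = 0.176). Eef1g, the anchor subunit of eEF1B, was at 97.1 and 103 against 110 and 110 CPM (-0.14 ± 0.069, edgeR adjusted p = 0.281). Eef1d, the other exchange subunit, and Eef1e1, which sits in the multi-tRNA synthetase complex, gave -0.048 and -0.094, with overlap.

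eEF2, which moves the ribosome along the message, and its inhibitory kinase had the same sign. Eef2 was at 780 and 795 CPM at 18 months against 852 and 873 CPM at 3 months (-0.13 ± 0.051, edgeR adjusted p = 0.167). Eef2k was at 25.2 and 24.8 against 29.6 and 31.0 CPM (-0.27 ± 0.099, edgeR adjusted p = 0.143). Groups were apart in both genes, and neither passed. With GC content and length offsets Eef2 passed (-0.21, edgeR adjusted p = 0.0398, with a range over 15 alternatives up to 0.453). Of the methyltransferases that modify lysines of these factors, Eef1akmt1 was at 34.1 and 35.4 against 40.2 and 38.8 CPM (-0.19 ± 0.090). Eef1akmt2, Eef1akmt4 and Eef2kmt gave 0.021, -0.13 and -0.25, all with overlap, and 17.6% of the exon length of Eef2kmt lies opposite Alg1. Eef1akmt4 shares 30.7% of its exon length with Gm49333 on the same strand.

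**Figure D3:**
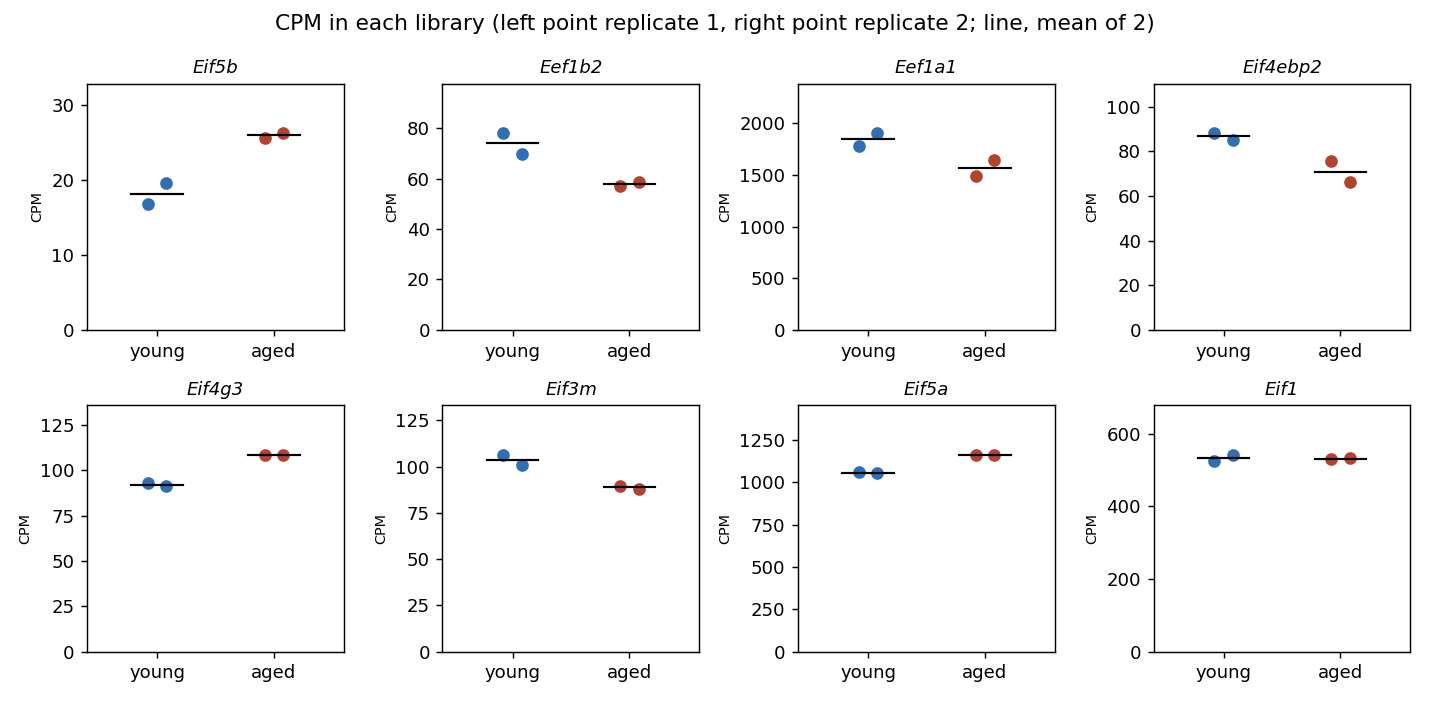
CPM of 8 members in each library, with the mean of each age as a line and axes starting at 0. Eif5b, Eif4g3 and Eif5a lie higher and Eef1b2, Eef1a1, Eif4ebp2 and Eif3m lower in both aged libraries, while Eif1 overlaps.

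The members known as TOP messages shared a sign. In a list of 9 (Eef1a1, Eef1b2, Eef1d, Eef1g, Eef2, Eif3e, Eif3f, Eif3h and Eif4b) every log2 change was negative, from -0.36 to -0.048, with a median of -0.15. Over all 12035 tested genes 6100 were negative. The list of 9 was chosen with earlier results of these data known, so that the shared sign is a description only. Of these 9, Eef1b2 passed as lower, beside 2.89% of all tested genes. The 9 genes summed to 3031 and 3194 CPM at 18 months against 3507 and 3608 CPM at 3 months. The groups did not overlap in 8 of the 9, all with aged below young, beside 25.7% of all tested genes. The other 49 tested members had 28 positive and 21 negative values and a median of 0.014, and summed to 7034 and 7086 CPM at 18 months against 6949 and 6955 CPM at 3 months. All 9 were negative under every scaling, filter and test tried, and in 3 of the 4 fits that each left out 1 library. In the fit without aged replicate 1, the count was 8.
The cytosolic ribosomal protein genes, the classical TOP messages, were compared by a list chosen after the values were seen. Of 85 tested, 51 fell and 0 rose (60.0%, beside 2.89% lower and 2.87% higher of all tested genes), with 83 negative values and a median of -0.33. The translation factors of the TOP list thus had the sign of the ribosomal protein genes at a smaller size (whether their medians differ was not tested). The progenitor and classical monocyte sums given above were also lower in both aged libraries, and their part in this was not tested.

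**Figure D4:**
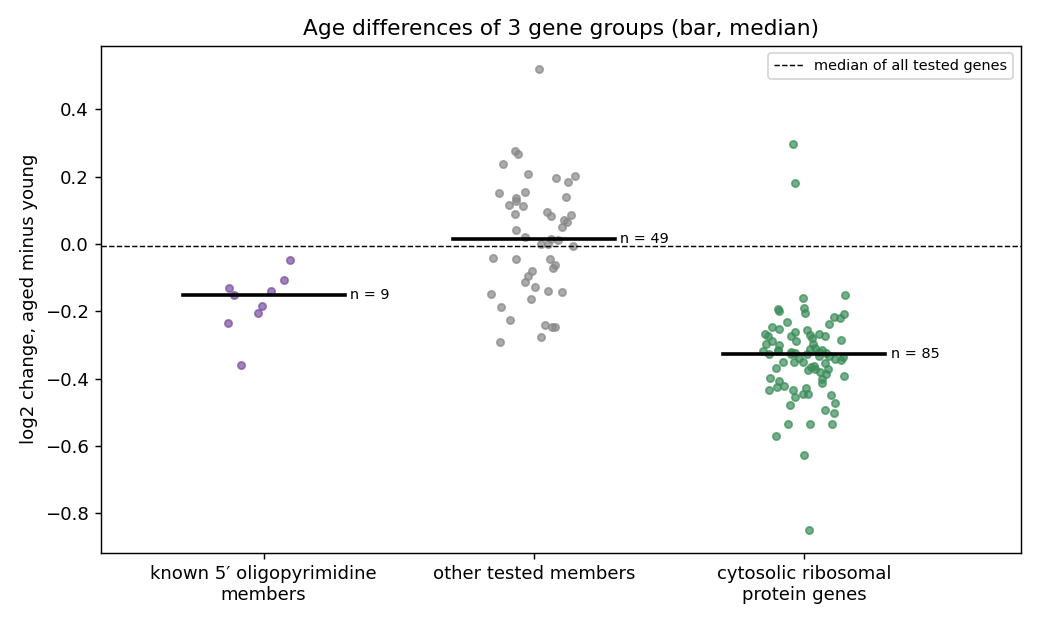
Log2 change (aged minus young) of 9 known TOP members, the other 49 tested members and 85 cytosolic ribosomal protein genes; points are genes, bars medians, and the dashed line the median of all tested genes. Medians are -0.15, 0.014 and -0.33.

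In the start regions a run of this kind, searched from 20 bases before to 30 bases from the RefSeq start on, was found in 20 of the 48 members with a promoter sequence (41.7%). It is a common string, present in 34.3% of all 32851 start windows, in 38.8% of tested genes and in 73.4% of 64 ribosomal protein genes. Of the TOP list, 5 members had a promoter sequence and 4 of these held a run, all but Eef1b2. Members with a run had a median log2 change of -0.10 (18 tested, 12 negative), and those with a promoter sequence and no run 0.048 (28 tested, 11 negative). Over all tested genes the same medians were -0.019 and 0.0040. The motif was added after values were seen, and members with a run include Eef1a1, Eef2, Eif3f and Eif4b of the TOP list. These medians thus partly repeat that list and are a description only. Of the 18 with a run 0 passed, beside 5.38% of all tested genes with a run. Of the 28 without, 1 rose (Eif5b) and 1 fell (Eef1b2), beside 5.54% of all tested genes without a run. An annotated start can lie some bases away from the start used in these cells.

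Partner genes of the factors were taken from a list of kinases, phosphatase subunits, mTOR components, poly(A) binding, modifying, termination and mitochondrial factors. Of 60 tested, 1 rose and 3 fell (6.67% beside 5.77% of all tested genes), with a median of -0.041. Ppp1r15a (GADD34), the stress-induced subunit that leads a phosphatase to eIF2 alpha, was at 19.9 and 18.1 CPM at 18 months against 7.81 and 7.07 CPM at 3 months. It rose 2.55-fold (1.35 ± 0.14, edgeR adjusted p = 0.000367) and passed in all 15 alternatives. The immediate early genes named above were higher in the same libraries, and their part in this value was not tested. Its constitutive relative Ppp1r15b was at 240 and 230 against 276 and 268 CPM and did not pass (-0.21 ± 0.058, edgeR adjusted p = 0.058). It passed in 6 of 15 alternatives, with adjusted p from 0.00479 to 0.347.
The 4 eIF2 alpha kinase genes did not pass: Eif2ak1 (heme-regulated) gave 0.12 ± 0.067, Eif2ak2 (PKR) -0.27 ± 0.13, Eif2ak3 (PERK) 0.066 ± 0.079 and Eif2ak4 (GCN2) 0.34 ± 0.16.

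Mtor, the kinase above the 4E-BPs and the TOP messages, was at 24.7 and 28.0 CPM at 18 months against 39.7 and 34.9 CPM at 3 months. It fell by 0.51 ± 0.11 on the log2 scale (edgeR adjusted p = 0.025), without overlap. Pabpc1, the poly(A)-binding protein that contacts eIF4G, was at 399 and 463 against 552 and 553 CPM and fell by 0.36 ± 0.069 (edgeR adjusted p = 0.0147). Dhx9, an RNA helicase, was at 25.5 and 18.2 against 35.1 and 31.1 CPM and fell by 0.60 ± 0.15 (edgeR adjusted p = 0.0436). Without young replicate 1, the deepest library, none of these 3 passed. The log2 changes were then -0.41 for Mtor, -0.36 for Pabpc1 and -0.50 for Dhx9. Dhx9 was also lost without aged replicate 2, at -0.38. It did not pass with upper-quartile scaling (edgeR adjusted p = 0.0532) or with library sizes alone (edgeR adjusted p = 0.0565). Pdcd4, an inhibitor of eIF4A, was at 40.2 and 47.5 against 43.8 and 61.7 CPM, with overlap (-0.26 ± 0.15). In the list of mTOR and MAP kinase control, 13 genes were tested, with 5 positive and 8 negative values, and only Mtor passed. Larp1 gave -0.039, Rheb 0.051, Mlst8 0.21, Rptor -0.27, Tsc1 -0.35 and Tsc2 -0.22. Signalling by mTOR was not tested. Among 10 tested mitochondrial translation factor genes and 8 enzymes that modify eIF5A or eEF2, 0 passed and 0 had an unadjusted p under 0.05 with edgeR; DESeq2 and limma-voom called 0 as well.

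**Figure D5:**
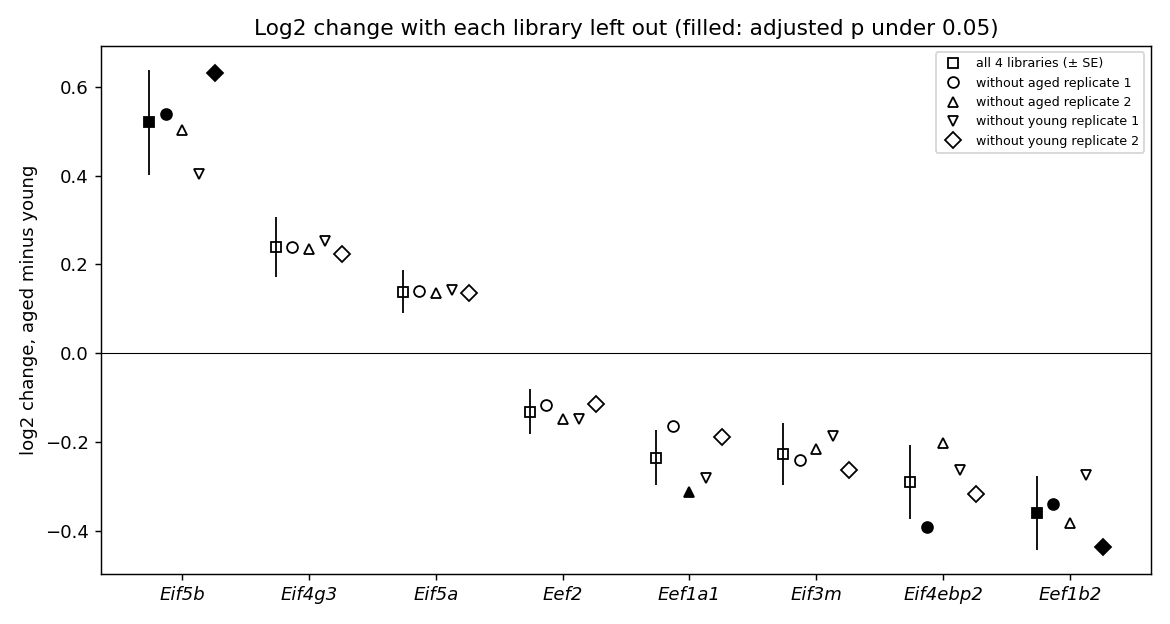
Log2 change (aged minus young) of 8 members with all 4 libraries (squares, ± standard error) and with each library left out; filled symbols passed an adjusted p under 0.05. Eif5b and Eef1b2 keep their sign in every fit and lose the call without aged replicate 2 or young replicate 1, where 3 libraries remain.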

How the data were processed

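The authors deposited unnormalized counts by gene symbol in a table for each library. The submitters' processing notes list mm10 and, with no role for each, the tools HTSeq, DESeq2, cutadapt and STAR 2.5.3; per the labels' protocols, libraries were oligo-dT selected and strand-specific (dUTP). The annotation, strand setting and treatment of multi-mapping reads were not given in the sources used here. Genes were kept by filterByExpr (minimum count 10, minimum total 15), scaled with TMM, and tested aged against young over all 4 libraries with edgeR 4.0.16 (glmQLFTest, two-sided) in R 4.3.3, adjusted by Benjamini-Hochberg over all 12035 genes at 0.05. The standard error is the log2 change divided by the square root of F. The procedure was tested on simulated data in which all genes had the same dispersion. It recovered 8 of 50 genes changed 1.25-fold, 34 of 50 changed 1.5-fold and 46 of 50 changed 2-fold. There were 4 calls among unchanged genes. A member that did not pass may therefore still differ by a small fold. Positions and lengths come from GENCODE M21 (GRCm38), which held 30416 of 31017 symbols once, and start regions from RefSeq, which held 48 of 64 members. The pyrimidine-run motif and ribosomal protein list were added after values were seen, and members, lists and naming rule were chosen with earlier results of these data known. Named were members past the threshold or with an unadjusted p under 0.05, a fixed set of central factors and partners past the threshold; further members are given to complete their groups. Alternatives covered scaling, filters, DESeq2 1.42.0, limma-voom (limma 3.58.1), robust edgeR, GC content and length offsets (splines with 5 degrees of freedom), a block for replicate number, and leaving out each library.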

Additional observations from a re-analysis of the deposited data

How the results depend on the processing

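The count of members higher in aged monocytes was 1, and it was 2 with GC content and length offsets (Eif4g3 and Eif5b) and 3 with the replicate number as a block. The count lower was 1, and it was 2 with library sizes alone, with library sizes without the 20 most abundant genes, with DESeq2, limma-voom or robust edgeR (Eef1a1 and Eef1b2 in each), 3 with no low-count filter, 4 with GC content and length offsets and 7 with the block. With 1 library left out the counts ranged from 0 to 2 higher and from 0 to 3 lower, and both were 0 without young replicate 1. Partner genes, 1 higher and 3 lower, gave 2 higher and 8 lower with no low-count filter, 2 higher with limma-voom and 3 higher and 10 lower with the block, and 0 to 5 lower with 1 library left out. The cause of these shifts was not tested. Beside the member and partner counts, 5.77% of all tested genes passed in the main fit. The share was 5.27% with library sizes alone and 5.58% with library sizes without the 20 most abundant genes. It was 5.67% with DESeq2, 6.72% with limma-voom and 6.68% with robust edgeR. With no low-count filter it was 8.08%, and with GC content and length offsets 6.88%. Over all genes 694 passed, 1399 of 17314 with no filter, 1817 with the block, and 197 to 1040 with 1 library left out. Aged and young libraries share replicate numbers, but nothing in the labels pairs them, and deviations of same-numbered libraries correlated at 0.094; the block called 10 members, 15.1% of all genes passed with it, and of the members named above it added Eif4e2, Eif4g3, Eef1a1, Eif3e, Eif3f, Eif3i, Eif3m and Eif4ebp2. The summed level was 10172 CPM in aged and 10509 CPM in young libraries, 10172 and 10510 CPM with RLE scaling and 10184 and 10496 CPM with library sizes alone. No scaling moved the median of all genes by 0.1. In fits that leave out a library, the remaining one of that age is assumed to vary like the other age.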

Other observations

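Ratios of member counts within a library do not depend on scaling, and pairs were formed after values were seen, most of them from members already seen to differ in opposite directions, so that their separation by age is a description only. Reads of Eif4g3 per read of Eif4g1, the alternative and the main eIF4G scaffold, were 0.616 and 0.634 at 18 months against 0.489 and 0.492 at 3 months. Reads of Eif4ebp1 per read of Eif4ebp2 were 1.63 and 1.86 against 1.34 and 1.37, and reads of Eif5a per read of Eef1a1 were 0.782 and 0.706 against 0.593 and 0.553. Within eIF3, reads of Eif3b per read of Eif3m were 2.94 and 3.01 against 2.19 and 2.39. A two-sided exact permutation test of 2 against 2 libraries cannot give a p below 0.333, the value found in these 4 pairs. For the helicase pair Eif4a1 and Eif4a2 the ratios of the ages overlapped.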
